A study of Mus musculus with 6 samples.

Results

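A panel of 9 genes that are widely used to mark reactive astrocytes was followed in cultured neurospheres of the adult mouse hippocampus: Serpina3n, Lcn2, Cp, Osmr, S1pr3, Cd44, Steap4, Aspg and Hspb1. They were chosen by name, and all 9 were measured, among 19937 genes that the array annotation lists under a single symbol. The neurospheres, floating colonies grown from dissociated hippocampal tissue of male C57BL/6J mice (8 to 12 weeks old), formed in medium with EGF and bFGF and were harvested on day 14. The sample titles of both groups call them big neurospheres. One group of 3 samples received 10 µM norepinephrine, and the other group of 3 received 15 mM potassium chloride (KCl), which depolarises excitable cells. Each sample was run on 1 whole-transcript array. No untreated spheres were analysed here, so each difference is norepinephrine minus KCl, and it cannot be told apart which of the treatments moved a gene. The sample titles call the samples of each group biological replicates 1 to 3. The sources used here do not say whether these came from separate animals or cultures, so a p-value measures only the spread between these samples. Neurospheres are a mixture of precursors and their progeny, and in such bulk samples fewer cells of a type and less RNA per cell cannot be told apart.

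Astrocytes respond to injury, infection and inflammatory cytokines by a change of state called reactive astrogliosis. Cytokines of the interleukin-6 family signal through receptors that share the gp130 chain (Il6st) to the transcription factor STAT3, while tumour necrosis factor and interleukin-1 signal to NF-kB, and both routes are known inducers of several of these genes. The proteins include secreted factors (Serpina3n, Lcn2 and Cp), receptors of the cell surface (Osmr, S1pr3 and Cd44), enzymes (Steap4 and Aspg) and a chaperone (Hspb1). Together with Gfap, Vim, Timp1 and Cxcl10 they make up a commonly used panel of 13 pan-reactive genes.

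To show the stretches of DNA next to which these genes start, the 250 bases upstream of the annotated start are printed for the genes with the smallest p-values (Serpina3n, Osmr and Cp) and for Steap4 and Hspb1, which held several motif matches. All are RefSeq sequences of GRCm38.p6, read along the strand of the gene, at chr12:104406458-104406707 (plus strand) for Serpina3n, chr15:6874314-6874563 (minus strand) for Osmr, chr3:19956999-19957248 (plus strand) for the downstream of 2 annotated starts of Cp, chr5:7960222-7960471 (plus strand) for Steap4 and chr5:135887669-135887918 (plus strand) for Hspb1. Capitals mark matches, on either strand, to any of 6 motifs: STAT (TTCNNNGAA), NF-kB (GGNNTTTCC), C/EBP (TTNNGCAA), AP-1 (TGANTCA), the cAMP response element CRE (TGACGTCA) and the heat shock element (GAANNTTC).
Serpina3n: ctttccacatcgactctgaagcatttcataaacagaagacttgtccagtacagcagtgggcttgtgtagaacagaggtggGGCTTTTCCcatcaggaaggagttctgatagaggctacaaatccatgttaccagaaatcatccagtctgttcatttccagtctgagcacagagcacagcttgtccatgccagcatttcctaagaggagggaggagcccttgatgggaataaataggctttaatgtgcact
Osmr: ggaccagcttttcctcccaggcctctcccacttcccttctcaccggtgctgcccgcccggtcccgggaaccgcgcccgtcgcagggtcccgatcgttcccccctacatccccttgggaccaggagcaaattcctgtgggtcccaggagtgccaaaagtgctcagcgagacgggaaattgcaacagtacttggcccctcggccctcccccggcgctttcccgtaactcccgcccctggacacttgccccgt
Cp: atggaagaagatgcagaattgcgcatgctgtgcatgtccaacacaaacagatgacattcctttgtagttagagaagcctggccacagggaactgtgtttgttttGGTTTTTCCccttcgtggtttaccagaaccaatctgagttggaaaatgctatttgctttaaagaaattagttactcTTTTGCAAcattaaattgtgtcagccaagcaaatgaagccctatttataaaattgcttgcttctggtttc
Steap4: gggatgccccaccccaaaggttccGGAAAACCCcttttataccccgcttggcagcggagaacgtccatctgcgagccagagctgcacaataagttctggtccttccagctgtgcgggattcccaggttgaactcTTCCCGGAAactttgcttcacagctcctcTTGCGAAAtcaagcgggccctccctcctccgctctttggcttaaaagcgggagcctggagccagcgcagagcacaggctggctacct
Hspb1: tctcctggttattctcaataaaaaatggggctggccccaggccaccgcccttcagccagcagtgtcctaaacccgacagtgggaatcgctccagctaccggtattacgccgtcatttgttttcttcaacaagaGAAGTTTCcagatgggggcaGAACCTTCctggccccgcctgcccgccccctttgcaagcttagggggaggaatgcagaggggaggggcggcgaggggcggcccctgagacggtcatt

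Over the 10 upstream windows of the 9 genes, the NF-kB motif was found in Serpina3n, from 170 to 162 bases before the start, in Steap4, from 226 to 218 bases before it, and at the downstream start of Cp, from 146 to 138 bases before it. This motif was present in 4.93% of 32817 upstream windows of the same length. The STAT motif was found in Steap4 alone among the 9 genes, from 116 to 108 bases before the start, and in 7.01% of all windows. The C/EBP motif was found in Lcn2, in Steap4 and at the downstream start of Cp, against 9.57% of all windows, and the AP-1 motif at the upstream start of Cp, against 6.75%. Hspb1 held 2 heat shock elements, from 117 to 110 and from 97 to 90 bases before its start, and this motif was present in 6.69% of all windows. The CRE motif, present in 1.55% of all windows, was found next to 0 of the 9 genes. In the windows of Osmr, S1pr3, Cd44 and Aspg these letters were not found. No matched motifs overlapped one another. A match is a run of letters and does not show that a factor binds there.

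**Figure D1:**
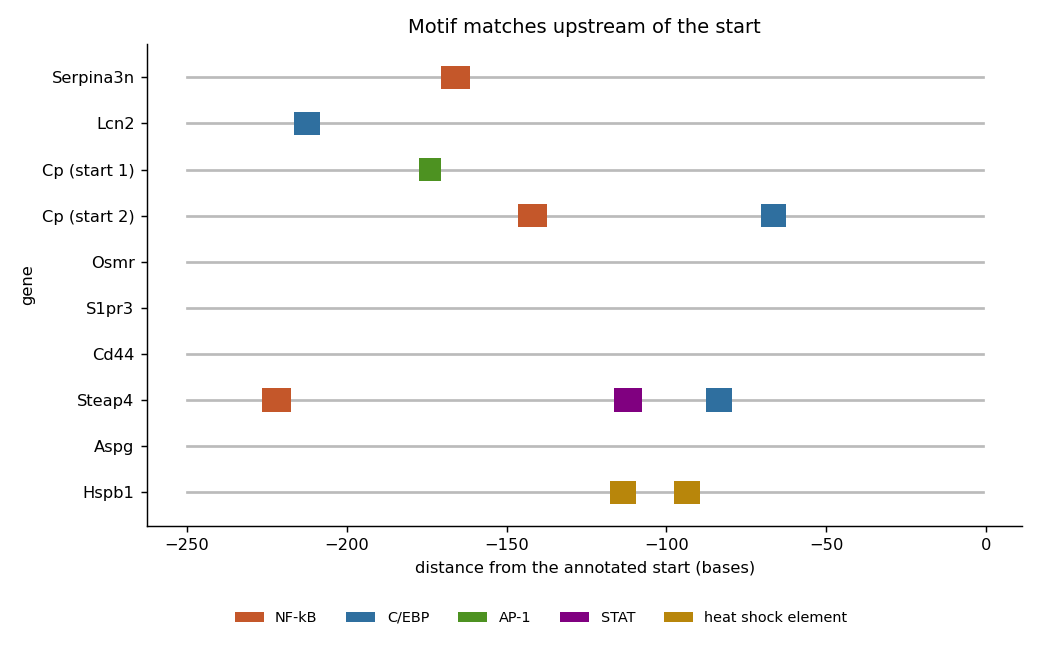
Matches to STAT, NF-kB, C/EBP, AP-1 and heat shock motifs in the 250 bases before each annotated start, by distance from the start in bases. Grey lines are the windows searched and coloured blocks the matches, with Steap4 holding 3 and Osmr, S1pr3, Cd44 and Aspg 0.

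The 9 genes did not share one direction between the treatments. Serpina3n and Osmr were higher on every norepinephrine array than on any KCl array, by 0.63 and 0.49 log2 units, whereas Cp was lower with norepinephrine on average, by 0.80 log2 units, with overlapping groups. S1pr3 and Cd44 were higher with norepinephrine by 0.27 and 0.10, and Lcn2, Steap4, Aspg and Hspb1 were lower by 0.22 to 0.32. In limma, with Benjamini-Hochberg adjustment over all 21640 probe sets, none of the 9 genes passed an adjusted p under 0.05 (0 of 9), and 0 of 21640 probe sets passed (percent called 0). At an unadjusted p under 0.05 there were 2 of the 9 genes, Serpina3n and Osmr, both higher with norepinephrine, where 743 of all probe sets (3.43%) reached it in either direction and 2.20% with norepinephrine higher. The groups did not overlap for the same 2 genes, and for 9.13% of all probe sets in either direction, or 4.36% with norepinephrine higher. In an alternative chosen after seeing the data, each array was weighted in limma by how closely its values lay to its group's fitted means. This gave KCl replicate 1 a weight of 0.158 and KCl replicate 3 one of 6.76. With these weights 2 of the 9 genes passed in limma, Serpina3n (adjusted p = 0.00727) and Cp (adjusted p = 0.0114), as did 6.72% of all probe sets. The weights came from the same values that were tested, and the KCl mean then rested mostly on KCl replicate 3. These p-values therefore do not rest evenly on 3 against 3 arrays. Means were higher with norepinephrine for 4 of the 9 genes and for 38.0% of all probe sets, and the median difference of the 9 genes was -0.22, against -0.07 over all genes.

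**Figure D2:**
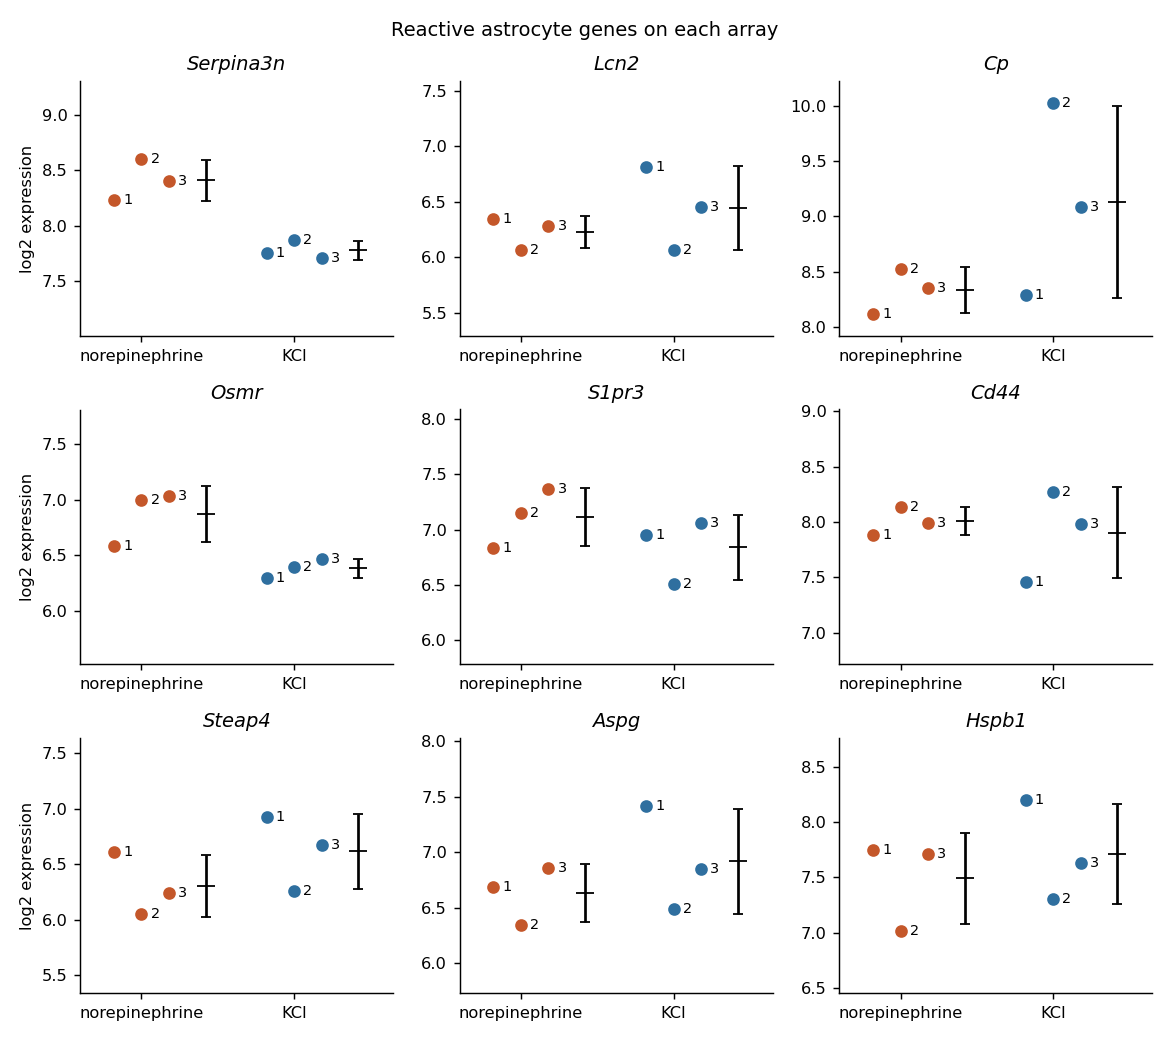
Log2 expression of the 9 genes on each array, with norepinephrine in orange and KCl in blue, replicate numbers beside the points and the mean ± SD (n = 3) in black. Every panel spans the same number of log2 units, and only the panels of Serpina3n and Osmr show groups that do not overlap.

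The arrays were not alike in their distributions, and this touched several of these genes. On KCl replicate 1 the standard deviation over all named probe sets was 1.38 log2 units, against 1.62 to 1.78 for the remaining 5, and 51.2% of probe sets had their highest value on that array. Differences without this array are therefore given beside each gene. The share of all probe sets with a higher norepinephrine mean was 38.0% with this array and 52.2% without it.

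Among the secreted factors, Serpina3n encodes a serine protease inhibitor of the alpha-1-antichymotrypsin clade, and is among the genes most strongly induced in reactive astrocytes. It read 8.23, 8.60 and 8.40 log2 units on norepinephrine replicates 1 to 3 and 7.75, 7.87 and 7.71 on KCl replicates 1 to 3. All 3 norepinephrine arrays lay above all 3 KCl arrays. The means were 8.41 ± 0.19 and 7.78 ± 0.08 (SD, n = 3 each), a difference of 0.63 ± 0.19 (SE; 95% interval 0.21 to 1.06) or 1.55-fold. Its unadjusted p in limma was 0.00837 and its adjusted p 0.939. The difference was 0.62 without KCl replicate 1, and between 0.54 and 0.73 with each array left out in turn. Single symbols covered 3 of 11 genes of the same serpin clade, and the related Serpina3a and Serpina3b differed by -0.38 and -0.23, or by -0.14 and -0.041 without KCl replicate 1. Whether probes of Serpina3n also bind transcripts of its close relatives was not tested.

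The genes whose pattern over the 6 arrays was most like that of Serpina3n, by Pearson's r among 13214 other genes, were Pde2a (r = 0.986), Ctnna2 (r = 0.985), Sfxn5 (r = 0.975), Zdhhc2 (r = 0.974) and Bend6 (r = 0.970). Only genes with means at or above the 30th percentile of probe set means were ranked, without symbols of the Gm, Rik, Olfr and Vmn series. These correlations describe 6 arrays that share their treatments. Pde2a, a phosphodiesterase that breaks down cAMP and cGMP, read 8.19, 8.45 and 8.36 with norepinephrine and 7.48, 7.69 and 7.35 with KCl, a difference of 0.83 ± 0.19 (SE). Ctnna2, an alpha-catenin of neurons, differed by 0.30 ± 0.17 and Sfxn5, a mitochondrial carrier of the sideroflexin family, by 0.38 ± 0.18. They were picked for this likeness, so their differences are a description. None passed the adjusted threshold in limma (0 of 5).

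Lcn2 encodes lipocalin 2, a secreted protein that binds iron-loaded siderophores and is a hallmark of strongly reactive astrocytes. It read 6.34, 6.07 and 6.28 log2 units with norepinephrine and 6.82, 6.06 and 6.46 with KCl. The highest and the lowest reading were both KCl arrays, replicates 1 and 2, and the norepinephrine arrays lay between them. The difference was -0.22 ± 0.23 (SE; 95% interval -0.74 to 0.31), and -0.03 without KCl replicate 1 (95% interval -0.45 to 0.39). Lcn2 was the 1 gene of the 9 whose mean lay below the 30th percentile of probe set means. Steap4, Osmr, Aspg and S1pr3 also lay below the median, at percentiles 30.3, 34.8, 39.0 and 44.8. No detection calls were available here, so a low reading cannot be told apart from background. The Lcn2 receptor Slc22a17 differed by -0.28 ± 0.19.

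Cp encodes ceruloplasmin, a copper-carrying ferroxidase that astrocytes both secrete and hold on their surface. It read 8.12, 8.53 and 8.35 log2 units with norepinephrine and 8.29, 10.02 and 9.09 with KCl. KCl replicates 2 and 3 were above all norepinephrine arrays, whereas KCl replicate 1 lay among them, and the 3 KCl arrays spanned more than the whole norepinephrine group. The means were 8.34 ± 0.20 and 9.13 ± 0.87 (SD, n = 3 each), a difference of -0.80 ± 0.39 (SE; 95% interval -1.68 to 0.09), or 1.74-fold, with an unadjusted p in limma of 0.0712 and an adjusted p of 0.939. The value rested on single arrays: it was -1.22 without KCl replicate 1 (95% interval -1.82 to -0.61, adjusted p in limma 0.396) and -0.35 without KCl replicate 2. Heph, the membrane-bound ferroxidase related to Cp, differed by -0.15 ± 0.18, or -0.087 without KCl replicate 1.

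**Figure D3:**
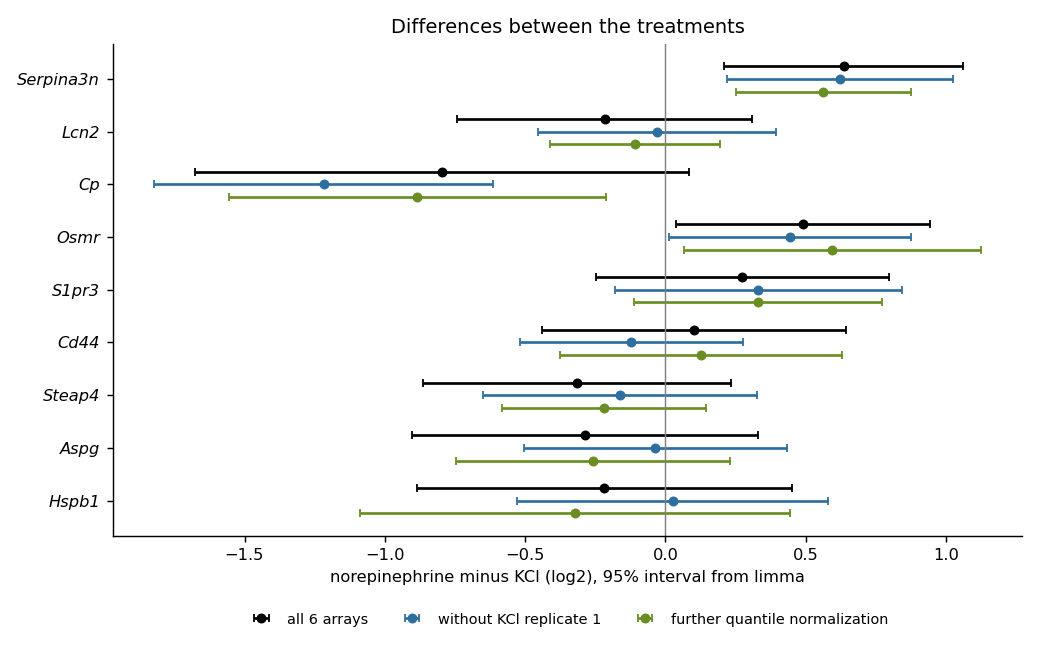
Norepinephrine minus KCl for the 9 genes in log2 units, with 95% intervals from limma, for all 6 arrays (black), without KCl replicate 1 (blue) and after a further quantile normalization (green). The intervals of Serpina3n and Osmr lie above 0 in all 3, that of Cp lies below 0 in the latter pair, and those of the other 6 genes hold 0 throughout.

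Among the receptors, Osmr is the subunit that pairs with gp130 to bind oncostatin M. It read 6.58, 7.00 and 7.04 log2 units with norepinephrine and 6.29, 6.39 and 6.46 with KCl. The groups did not overlap, but norepinephrine replicate 1 was close to KCl replicate 3. The Osmr mean lay at percentile 34.8 of probe set means, so the lack of detection calls limits this gene too. The means were 6.87 ± 0.25 and 6.38 ± 0.09 (SD, n = 3 each), a difference of 0.49 ± 0.20 (SE; 95% interval 0.04 to 0.94), or 1.40-fold, with an unadjusted p in limma of 0.0371 and an adjusted p of 0.939. It was 0.45 without KCl replicate 1, and 0.41 to 0.64 with each array left out in turn. The unadjusted p in limma did not stay under 0.05 without norepinephrine replicate 2 (0.128), norepinephrine replicate 3 (0.149) or KCl replicate 3 (0.0706). The genes that act with Osmr gave smaller differences: Il6st read 9.65, 9.87 and 9.90 against 9.47, 9.84 and 9.70, a difference of 0.13 ± 0.19 (0.033 without KCl replicate 1), and Stat3 differed by 0.12 ± 0.19. The ligand Osm differed by -0.33 ± 0.24, or -0.11 without KCl replicate 1.

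S1pr3 is a receptor for sphingosine 1-phosphate, a lipid signal released in inflammation. It read 6.83, 7.15 and 7.36 log2 units with norepinephrine and 6.95, 6.50 and 7.06 with KCl. The groups overlapped, with norepinephrine replicate 3 highest and KCl replicate 2 lowest. The difference was 0.27 ± 0.23 (SE; 95% interval -0.25 to 0.80), or 0.11 without KCl replicate 2 and 0.33 without KCl replicate 1. Cd44, the receptor for the matrix polymer hyaluronan, read 7.88, 8.14 and 7.99 with norepinephrine and 7.46, 8.27 and 7.98 with KCl. The KCl arrays again lay on both sides of the norepinephrine arrays. Its difference was 0.10 ± 0.24 (SE; 95% interval -0.44 to 0.64) with all arrays and -0.12 without KCl replicate 1, so the direction turned.

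Among the enzymes, Steap4 is a metalloreductase that reduces iron and copper and is induced by inflammatory cytokines. It read 6.61, 6.05 and 6.24 log2 units with norepinephrine and 6.92, 6.26 and 6.67 with KCl. The groups overlapped, and the difference of -0.32 ± 0.24 (SE; 95% interval -0.87 to 0.23) was -0.16 without KCl replicate 1. Aspg, an asparaginase, read 6.69, 6.34 and 6.86 with norepinephrine and 7.42, 6.48 and 6.85 with KCl. KCl replicate 1 stood above the other 5 arrays, and the difference of -0.29 ± 0.27 (SE; 95% interval -0.90 to 0.33) was -0.04 without it.

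Hspb1 encodes a small heat shock protein that binds unfolded proteins and stabilises the cytoskeleton. On the probe set that represents it, it read 7.74, 7.02 and 7.71 log2 units with norepinephrine and 8.20, 7.30 and 7.63 with KCl. KCl replicate 1 was highest and norepinephrine replicate 2 lowest, so each group held an extreme and the groups overlapped. The difference was -0.22 ± 0.29 (SE; 95% interval -0.88 to 0.45), and turned to 0.026 without KCl replicate 1 and to 0.020 without norepinephrine replicate 2. A second probe set of Hspb1, the only further one among these 9 genes, differed by -0.07 ± 0.24.

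Lcn2, Steap4, Aspg and Hspb1 shared a pattern over the arrays. All 4 of these genes read highest on KCl replicate 1, as did 51.2% of all probe sets, and each read below its own mean on norepinephrine replicate 2 and KCl replicate 2. The mean of 16 measured microglia markers was also highest there, at 6.84 log2 units against 6.10 to 6.37 elsewhere, and that of 10 endothelial markers was 6.76 on KCl replicate 1 and 6.02 to 6.43 elsewhere. Cd44 and Osmr, in contrast, read lowest on KCl replicate 1, as did 25.1% of all probe sets. The part that the distribution of KCl replicate 1, or RNA of other cell types, plays in these patterns was not tested. After a further quantile normalization, which makes the distributions alike, Lcn2, Steap4 and Aspg differed by -0.11, -0.22 and -0.26, and Hspb1 by -0.32.

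**Figure D4:**
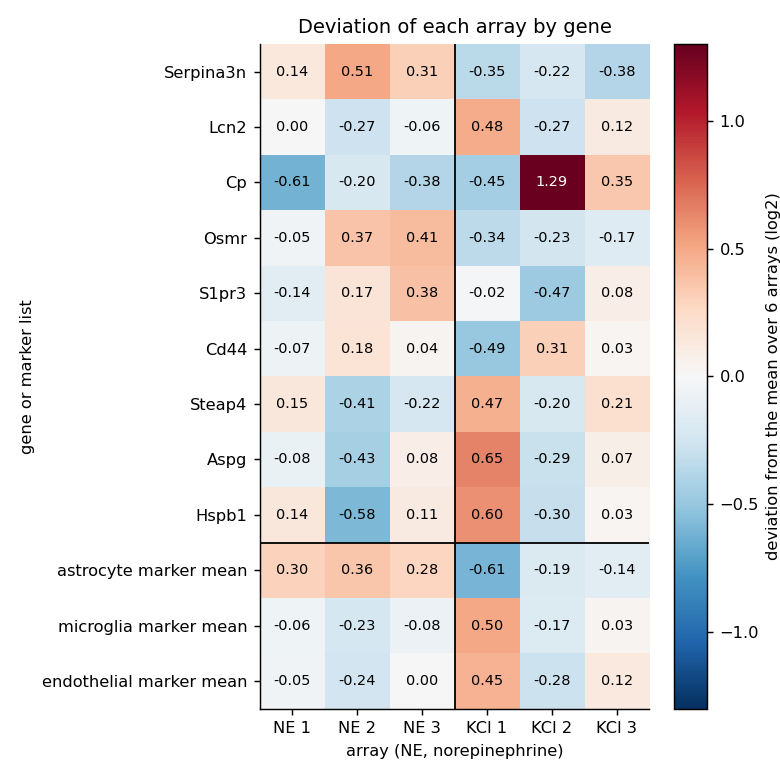
Deviation of each array from the mean over 6 arrays, in log2 units, for the 9 genes and for the means of 19 astrocyte, 16 microglia and 10 endothelial markers. Lcn2, Steap4, Aspg, Hspb1 and the microglia and endothelial markers are highest on KCl replicate 1, while Serpina3n and the astrocyte markers are above their means on all 3 norepinephrine arrays and below on all 3 KCl arrays.

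The remaining pan-reactive genes Gfap, Vim, Timp1 and Cxcl10 read higher on every norepinephrine array than on any KCl array. The intermediate filament Gfap read 8.11, 8.81 and 8.02 log2 units against 6.97, 6.12 and 6.18, a difference of 1.89 ± 0.30 (SE). Gfap is not particular to reactive astrocytes: it is also among the astrocyte markers read below, and Vim is among the neural stem cell markers. The metalloproteinase inhibitor Timp1 differed by 0.90 ± 0.26, the interferon-induced chemokine Cxcl10 by 1.31 ± 0.37 and the filament Vim by 0.44 ± 0.21, or 0.28 without KCl replicate 1. None of these passed the adjusted threshold with all 6 arrays. Without KCl replicate 1, 4 probe sets passed in limma (0.0185%), 1 of them that of Gfap (difference 2.17, adjusted p = 0.045), and none of the 9 genes did. Over all 13 pan-reactive genes, norepinephrine gave the higher mean in 8, against 38.0% of all probe sets and 59.5% of genes above the median signal. The groups did not overlap for 6, all with norepinephrine higher (4.36% of all probe sets). The median difference was 0.27, or 0.28 without KCl replicate 1.

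Further panels separate reactive astrocytes by the stimulus: A1 genes, induced by inflammatory cytokines, and A2 genes, induced by ischaemia. Single symbols covered 7 of 13 A1 genes, and norepinephrine gave the higher mean in 4 of these, at a median difference of 0.02 (0.16 without KCl replicate 1). Psmb8, a subunit of the immunoproteasome, differed by 0.51 ± 0.24, and the proteoglycan Srgn by -0.63 ± 0.24. In 7 of 12 A2 genes the norepinephrine mean was the higher one, at a median difference of 0.08, and S100a10, a protein of the S100 family, differed by 0.88 ± 0.47, or 0.32 without KCl replicate 1. At an unadjusted p under 0.05 in limma there were 1 of 7 and 0 of 12 genes, against 3.43% of all probe sets. The median over all genes was -0.07.

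The signalling routes upstream of these genes were read next. In the gp130 and STAT3 route, norepinephrine gave the higher mean in 8 of 22 measured genes. The median difference there was -0.07, as over all genes. Osmr was the 1 gene of the 22 with an unadjusted p under 0.05 in limma, against 3.43% of all probe sets. Cntfr, the receptor chain for ciliary neurotrophic factor, differed by 0.62 ± 0.30 and the phosphatase Ptpn11 by -0.33 ± 0.24, or -0.083 without KCl replicate 1. Without KCl replicate 1 the norepinephrine mean was higher in 15 of the 22 genes, and the median turned to 0.08. Among NF-kB genes the norepinephrine mean was higher in 7 of 25 measured, at a median difference of -0.09, and in 11 of 25 without KCl replicate 1, at -0.022. In that route the cytokine Il1a differed by -0.40 ± 0.17, the inhibitor Tnfaip3 by -0.30 ± 0.18 and the receptor Tnfrsf1a by 0.28 ± 0.18. Il1a was the 1 gene of these 25 with an unadjusted p under 0.05 in limma, against the same 3.43%. In neither route did a gene pass the adjusted threshold.

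Genes that share a function with single members gave values as follows. In iron and copper handling, the setting of Lcn2, Cp and Steap4, the norepinephrine mean was higher in 11 of 23 genes (median difference -0.01). At an unadjusted p under 0.05 in limma there were 4 of the 23, all higher with norepinephrine, against 2.20% of all probe sets: the ferritin chains Ftl1 at 0.80 ± 0.19 and Fth1 at 0.88 ± 0.30, the haem oxygenase Hmox1 at 0.68 ± 0.21 and the iron carrier transferrin, Trf, at 1.21 ± 0.39. Ftl1 read 8.16, 8.02 and 8.20 log2 units with norepinephrine and 7.12, 7.50 and 7.37 with KCl, and its groups did not overlap. Without KCl replicate 1 these 4 genes differed by 0.69, 0.53, 0.63 and 0.79. Cp, Lcn2 and Steap4, which handle the same metals, were lower with norepinephrine on average, so the group held genes on both sides.

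Among 9 small heat shock proteins, the family of Hspb1, 4 had the higher mean with norepinephrine, and the median difference of -0.15 turned to 0.07 without KCl replicate 1. Hspb6 read 8.69, 8.41 and 8.62 log2 units with norepinephrine and 7.19, 7.62 and 7.96 with KCl, a difference of 0.99 ± 0.23 (SE), and the lens and glial chaperone Cryab differed by 0.42 ± 0.18. The treatment groups did not overlap for these 2 of the 9 genes, both higher with norepinephrine (4.36% of all probe sets). For Hspb1 they overlapped. Hspb7 and Hspb3 went the other way, at -0.43 ± 0.27 and -0.36 ± 0.24, or -0.19 and -0.13 without KCl replicate 1. Of 12 genes of sphingosine 1-phosphate signalling, 4 had the higher mean with norepinephrine, the median difference of -0.08 turned to 0.03 without KCl replicate 1, and 0 had an unadjusted p under 0.05 in limma (3.43% of all probe sets). S1pr3 had the largest difference of the 12 in either direction, and S1pr1 differed by 0.19 ± 0.21, or 0.022 without KCl replicate 1. Of 13 genes around Cd44 and hyaluronan, 6 had the higher mean with norepinephrine (median difference -0.06). The hyaluronan-binding secreted protein Tnfaip6 differed by 0.76 ± 0.32, or 0.40 without KCl replicate 1, and the hyaluronan synthase Has3 by -0.30 ± 0.18.

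**Figure D5:**
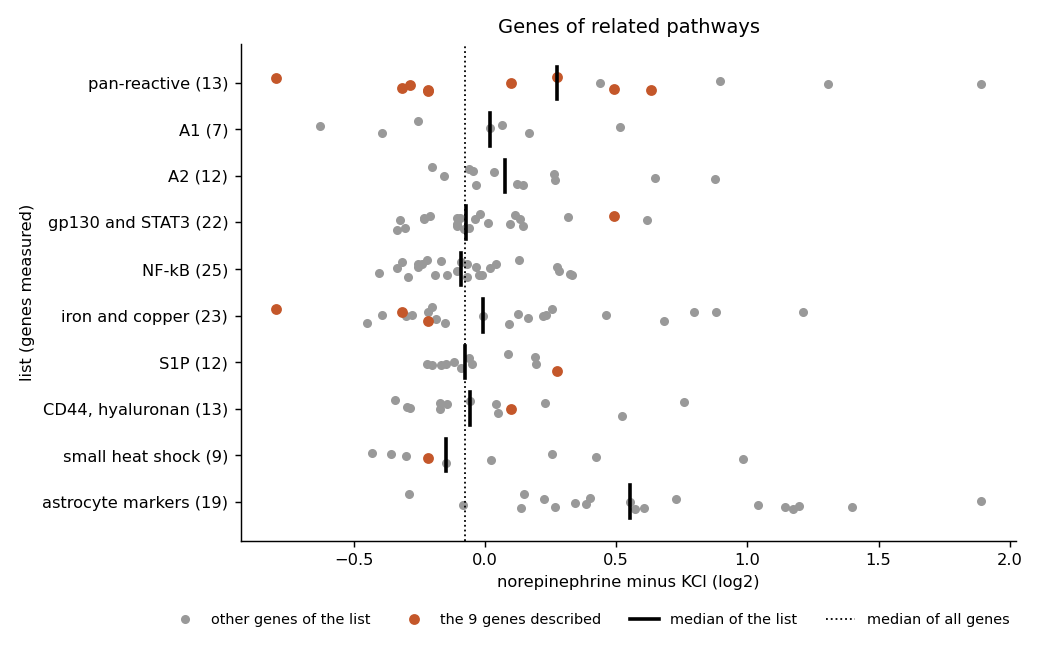
Norepinephrine minus KCl in log2 units for the measured genes of 10 lists, with the 9 genes described in orange, other genes in grey, the list median as a black bar and the median of all genes as a dotted line. The astrocyte markers lie furthest to the right, with a median of 0.55, and the 9 genes fall on both sides of 0.

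Markers of the cells that could carry these genes were read beside them. Of 19 measured astrocyte markers, 17 had the higher mean with norepinephrine, at a median difference of 0.55 (0.32 without KCl replicate 1), and their mean was 9.24 to 9.32 log2 units on the norepinephrine arrays and 8.35 to 8.83 on the KCl arrays. Apoe, a lipid carrier, differed by 1.20 ± 0.21, the secreted chaperone Clu by 1.04 ± 0.18 and Ndrg2 by 1.40 ± 0.22. The 2 markers with the lower mean with norepinephrine were S100b, at -0.29 ± 0.19, and Gjb6, at -0.083 ± 0.22. Without KCl replicate 1 these were -0.19 and 0.10, and 16 of the 19 markers had the higher mean with norepinephrine. Serpina3n, Osmr, S1pr3 and Cd44 had differences on the same side as the median of these markers (Cd44 turned without KCl replicate 1), and Lcn2, Cp, Steap4, Aspg and Hspb1 on the other (Hspb1 turned without KCl replicate 1 and without norepinephrine replicate 2). The part of astrocyte markers in the differences of Serpina3n and Osmr was not tested. Of 16 microglia markers, 14 had the higher mean with KCl, and their median difference of -0.25 was -0.01 when KCl replicate 1 was left out. All 10 endothelial markers had the higher mean with KCl, and their median difference of -0.16 turned to 0.06 when that array was left out. With all arrays, norepinephrine gave the higher mean in 59.5% of genes above the median signal, against 37.8% of all genes. The part of signal level in these marker counts was not tested. Of 12 neural stem cell markers, 8 had the higher mean with norepinephrine (median difference 0.20), and their mean was 9.03 to 9.13 with norepinephrine and 8.69 to 8.89 with KCl. These arrays carry no zero or detection call, so the presence of a cell type named in the labels could not be read from them.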

How the data were processed

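The authors deposited 1 table of log2 expression values per probe set for 6 arrays, and Partek and RMA are named in the submitters' processing notes, without versions or settings. Per the labels' protocols, RNA was turned into labelled cDNA by the Applause WT-Amp ST kit. Of 34760 probe sets, 21640 had 1 gene symbol in the platform annotation, 1321 had several and 11799 none, and only the first were used. The probe set of highest mean over 6 arrays stood for a gene. All 9 genes matched RefSeq (GRCm38.p6) by Entrez identifier, and the 250 bases before each start were searched with Python 3.11.15.

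The treatments were compared with limma 3.58.1 under R 4.3.3 (eBayes on lmFit, two-sided, no covariate, no filter on low values) over all 21640 probe sets, with Benjamini-Hochberg adjustment, after a test on simulated data. With 3 against 3 arrays an exact permutation test cannot go below p = 0.1, so none was run. Lists are described by counts and medians, without a set test. Members and lists were chosen with earlier results of these data known. From each list, at most 4 genes of smallest p were named. Named besides were Gfap, Vim, Il6st, Stat3, Heph, Slc22a17, S100b and Gjb6. So were the 5 genes most correlated with the member of largest t, among the 13214 genes ranked. Alternatives were a further quantile normalization, centring, filters, variance moderation, array weights, the replicate block, averaged probe sets, another threshold and each array left out.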

Additional observations from a re-analysis of the deposited data

How the results depend on the processing

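No probe set passed in limma under any alternative except without KCl replicate 1 and with array weights. The counts with 1 array left out ran from 0 to 4, and 0 of the 9 genes passed except with array weights. Array weights by limma's default method did not converge and were left out. Weights by its gene-by-gene method, chosen after seeing the data, ran from 0.158 for KCl replicate 1 to 6.76 for KCl replicate 3. With them 1454 probe sets passed, and 2 of the 9 genes, Serpina3n at 0.66 (adjusted p = 0.00727) and Cp at -0.81 (adjusted p = 0.0114), and the direction of Cd44 turned, at -0.0075. The KCl mean then rested mostly on KCl replicate 3. An unadjusted p under 0.05 in limma was reached by 5164 probe sets with these weights and 743 without them. The cause of these changes was not tested.

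The number of the 9 genes higher with norepinephrine was 3 to 5 in the settings that kept all 9. Their median of -0.22 was -0.11 after a further quantile normalization, -0.14 with averaged probe sets, -0.0075 with array weights and -0.35 to 0.020 with each array left out, the lowest without KCl replicate 2 and the highest without norepinephrine replicate 2. Of 120 recomputed gene differences 4 turned in direction: Cd44 with array weights and without KCl replicate 1 (-0.12), and Hspb1 without KCl replicate 1 (0.026) and without norepinephrine replicate 2 (0.020). The filters, variance moderation and the replicate block cannot change a gene's difference, and averaged probe sets changed only that of Hspb1. Those settings are part of the 120 but do not test the direction. With each array left out Cd44 ran from -0.12 to 0.28 and Hspb1 from -0.42 to 0.026. The 30th percentile and median filters kept 8 and 4 of the 9 genes. Of 218 recomputed list medians 31 moved by more than 1 SD of the list mean within groups, and medians were not recomputed where a filter removed a list gene. Variance moderation, the block and the filters could not move a list median, so the 218 include values fixed in advance. With each array left out the median ran from 0.15 to 0.41 for the pan-reactive genes, -0.25 to 0.16 for A1, -0.02 to 0.15 for A2, -0.19 to 0.08 for the gp130 route and 0.32 to 0.72 for astrocyte markers.

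With the replicate number as a block in limma, 0 probe sets passed (lowest adjusted p = 0.316). The lowest adjusted p among the reactive astrocyte genes followed here was 0.721. With the block, the probe sets at an unadjusted p under 0.05 in limma went from 743 to 1436. Of the genes followed, only Cp newly reached that level. Its unadjusted p in limma went from 0.0712 to 0.0151, with a 95% interval of -1.39 to -0.20 and an adjusted p of 0.742. Deviations of same-numbered arrays correlated at 0.301, 0.626 and 0.0852. Norepinephrine replicate 3 correlated best with KCl replicate 1 (0.311). The other norepinephrine arrays correlated best with the KCl array of the same number, and 0.626 was the highest value of any pair. These correlations do not decide whether the numbers pair the samples. The sample titles do not say so either, and the block was therefore kept as an alternative only. Signal over background was not given, which limits Lcn2 and other low readings.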
